A study of Rattus norvegicus with 27 samples.

Results

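The subunits of the mitochondrial respiratory chain were followed across 3 brain regions and 3 kinds of rat. They were chosen by name: a probe entered when its gene name began with Nduf (complex I), Sdh (complex II), Uqcr (complex III), Cox4 to Cox8 (complex IV) or Atp5 (complex V), and when 2 or more of the 3 arrays in any group showed its spot well above background. This gave 81 of the 41012 probes of the array, with 71 of its 35581 distinct gene names, and none of the probes chosen by name was lost to the filter on dim spots. Complex I had 35 probes for 31 genes, complex II 4 for 4, complex III 7 for 5, complex IV 16 for 13 and complex V 14 for 13. Another 5 probes carry such a name without being a structural subunit. These are Ndufaf1, which helps to assemble complex I, Cox7a2l, which helps complexes III and IV to associate, Atp5s (now Dmac2l, also known as coupling factor B), Cox4nb (now Emc8, a subunit of an endoplasmic reticulum complex) and Cox6b_predicted, whose accession in the array design describes uroplakin Ia. They were kept apart from the complexes in all counts by complex. Cox6c1, now annotated as a pseudogene, stayed under complex IV by its name.

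The respiratory chain sits in the inner mitochondrial membrane. Complexes I and II pass electrons from NADH and succinate to ubiquinone, complex III passes them on to cytochrome c, and complex IV reduces oxygen with them, while complexes I, III and IV pump protons whose return through complex V drives the synthesis of ATP. The genes measured here are all encoded in the nucleus, the proteins are imported into mitochondria, and neurons depend on this pathway for most of their ATP.

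The animals were male rats aged 10 weeks. Goto-Kakizaki rats, an inbred strain derived from Wistar rats that becomes diabetic without treatment and stands as a model of type 2 diabetes, had an average blood sugar of 13.9 mmol/l. Wistar rats given streptozotocin, a toxin of the insulin-producing beta cells used as a model of type 1 diabetes, had received 65 mg/kg into a vein at 6 weeks of age, 4 weeks before sampling. They were kept only above a plasma glucose of 15 mmol/l and averaged 26.34 mmol/l. Untreated Wistar rats served as controls, with an average of 7.64 mmol/l. Striatum, prefrontal cortex and hippocampus were taken from the same rats, and each of the 9 combinations was measured as 3 pools of 3 animals, with 1 array per pool. The Goto-Kakizaki rats differ from the controls in strain as well as in diabetes, and the 2 cannot be told apart. Both models share their control arrays, and the regions share their animals, so their comparisons are not independent of each other.

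The 75th percentile of the signal lay between 690 and 1527 on the 27 arrays, and 67.4% to 75.3% of the probes were well above background. Markers of striatal medium spiny neurons were higher in the striatum than in the hippocampus of control rats for 9 of 9 probes tested, with summed levels of 190 to 250 times the 75th percentile signal in the striatum and 3.64 to 3.68 in the hippocampus. Markers of hippocampal neurons summed to 3.24 to 3.74 in the control hippocampus, above 0.957 to 1.00 in the prefrontal cortex and 0.461 to 0.633 in the striatum. Against each of these regions 3 of 4 probes were higher in the hippocampus and 1, Spink8, was lower. Cortical markers did not set the prefrontal cortex (12.7 to 13.9) apart from the hippocampus (11.8 to 15.4). The prefrontal cortex of control rats also held 6.44 to 21.1 of the summed striatal markers.

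The arrays lay on 7 slides, and groups were spread unevenly over them. The Goto-Kakizaki and control prefrontal cortex, the streptozotocin and control hippocampus, the streptozotocin and control striatum, and the control hippocampus and either other control region shared no slide. In these comparisons slide and group cannot be told apart within a slide or by a slide term. With slide as a random block (consensus correlation 0.0106), striatum against hippocampus had 15 calls in place of 16 and the counts of the other comparisons were the same. Equal replicate numbers on a shared slide had deviations from their group means that correlated at 0.474 to 0.716 between streptozotocin and control prefrontal cortex. Between control striatum and prefrontal cortex the correlations were 0.55 and 0.60 on a shared slide and -0.18 on different slides. Those on a shared slide between Goto-Kakizaki and control rats were 0.06 in hippocampus and 0.04 in striatum, so the consensus does not describe every slide.

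All levels below are log2 values relative to the 75th percentile of the same array, so that 0 marks that percentile and 1 unit is a factor of 2. The respiratory chain probes were bright: 78 of 81 were well above background on all 27 arrays, the exceptions being Cox6b_predicted and 2 probes of Cox8h, and 0 were saturated on any array. In control hippocampus their median per array averaged 4.52, against -1.74 for all probes that passed the filter. Medians and shares of all probes given below are therefore not matched to the subunits for brightness. Bright spots were often marked by the image software for a local background that was uneven or a population outlier, both called uneven background below. The model fits left such spots out, which removed 447 of the 2187 values of these probes (20.4%), against 3.76% of the values of all probes that passed the filter. For some probes a single array of a group was left in the fit. Levels quoted per array include the marked spots. A fold change can therefore differ from the difference of the levels beside it, and a call that was lost when only spots with an uneven signal of their own were left out is named as such.

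The level of the whole set varied little between groups. Over the 80 probes with a mean in all 9 groups, the gap between the highest and the lowest group mean had a median of 0.50 on the log2 scale, with extremes of 0.19 for Atp5h, a stalk subunit of complex V, and 2.03 for Cox6b_predicted. Only 7 probes spanned a factor of 2 or more: Cox6b_predicted, the 3 Cox8h probes, Cox6b2 (1.08), Cox6a2 (1.08) and Ndufa7 (1.02). Cox6a2 is the heart and muscle form of its subunit and Cox6b2 the testis form, so that, Ndufa7 apart, the widest spans fell on tissue isoforms and dim probes. Atp5f1 (0.26) and Ndufa5 (0.28) lay near the low end.

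As a median over the 81 probes, each set against its own mean over the 27 arrays, the level was 0.12 ± 0.31 in Goto-Kakizaki, 0.04 ± 0.10 in streptozotocin and 0.16 ± 0.25 in control striatum (SD, n = 3 pools). In the prefrontal cortex it was 0.04 ± 0.22, 0.11 ± 0.08 and -0.03 ± 0.07 for the same groups. In the hippocampus it was -0.06 ± 0.03 in Goto-Kakizaki, -0.14 ± 0.14 in streptozotocin and -0.18 ± 0.007 in control rats. The hippocampus was the lowest region in each kind of rat. In Goto-Kakizaki rats its gap to either other region was smaller than the SD of that region, in streptozotocin-treated rats the pools of striatum and hippocampus overlapped although the gap was larger than either SD, and in control rats the hippocampus lay below both other regions without overlap. These gaps were not tested. The lowest group mean of a probe fell in the control hippocampus for 35 of the 80 probes and in the streptozotocin hippocampus for 21, and in neither the control striatum nor the streptozotocin prefrontal cortex for any. The highest mean fell in the streptozotocin prefrontal cortex for 23, in the Goto-Kakizaki striatum for 21 and in the control striatum for 21.

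**Figure D1:**
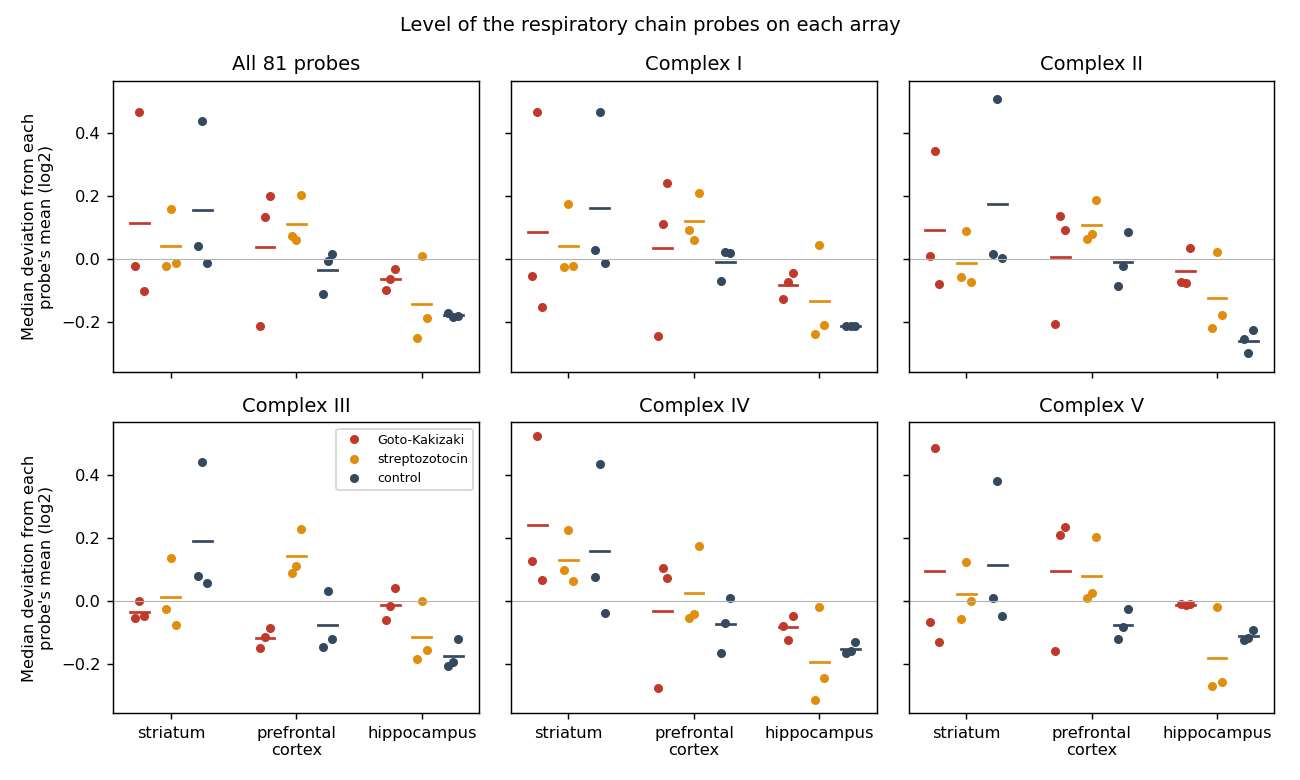
Median deviation of the respiratory chain probes from their own means (log2 scale, y axis) on each array, for all 81 probes and for complexes I to V, by region (x axis); Goto-Kakizaki arrays are red, streptozotocin arrays orange and control arrays dark blue, and a dash marks the mean of 3. Striatum array 2 of the Goto-Kakizaki rats (0.47) and of the control rats (0.44) stand above the other arrays of their groups.

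Single arrays carried much of this spread. Striatum array 2 of the Goto-Kakizaki rats lay at 0.47, with complexes I, IV and V between 0.47 and 0.52 and complex III at -0.002, and it had the lowest 75th percentile signal of all arrays (690). Striatum array 2 of the control rats lay at 0.44 (75th percentile signal of 974), and prefrontal cortex array 1 of the Goto-Kakizaki rats at -0.21 (1505). The median SD of a respiratory chain probe was 0.33 in Goto-Kakizaki and 0.29 in control striatum, and 0.06 in the hippocampus of both. Results that rest on these arrays are given with and without them.

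The first comparison asked where in the brain of untreated rats the subunits were more abundant. In the striatum, 16 of 75 probes tested (21.3%) were higher than in the hippocampus at an adjusted p under 0.05 (limma, Benjamini-Hochberg over all probes), and 0 were lower, while 16.5% of all probes tested were called higher and 28.9% in either direction. The share of the subunits is therefore near that of the array as a whole. Their median change was 0.33 on the log2 scale and 65 of 75 lay above 0, against a median of 0.03 over all probes, but with normexp background correction the median of the subunits was 0.08 and that of all probes 0.38, so that the subunits then lay below the array. By complex, the calls were 10 of 35 in complex I (median 0.40), 1 of 4 in complex II (0.35), 2 of 6 in complex III (0.33), 2 of 15 in complex IV (0.23), the pseudogene probe Cox6c1 among them, and 1 of 10 in complex V (0.17), and the median of complex V turned negative with quantile normalization (-0.12) and normexp (-0.23). None of the changes called reached 2-fold, while 9.07% of all probes tested were called with a change of that size. In bulk tissue, fewer cells of a type and less RNA per cell cannot be told apart, and oligodendrocyte markers were higher in the striatum for 9 of 11 probes (summed 531 to 559 in striatum, 304 to 336 in hippocampus) while general neuronal markers were lower for 5 of 7 (92.6 to 101 in striatum, 155 to 166 in hippocampus). Their part in the result was not tested.

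All 10 calls in complex I were accessory subunits, which surround the catalytic core: 10 of 27 accessory probes (median 0.49) and 0 of 8 core probes (median 0.33) were called, and the difference between the classes was not tested. With spots of uneven background kept, 11 accessory probes and 2 core probes (Ndufs3 and Ndufv2, both in the arm that takes electrons from NADH) were called. Ndufa6, an accessory subunit of the arm that reaches into the matrix, had levels of 6.20, 6.61 and 5.96 in control striatum, against 5.65, 5.58 and 5.67 in control hippocampus. The arrays did not overlap, and the fold change was 0.77 (SE 0.15, adjusted p = 0.00211). Ndufs6, a zinc-binding accessory subunit, had 4.91, 5.53 and 4.91 in striatum, against 4.36, 4.55 and 4.51 in hippocampus (0.74, SE 0.20, adjusted p = 0.00835). Ndufc2, in the membrane arm, had 6.02, 6.43 and 6.00 in striatum and 5.51, 5.55 and 5.58 in hippocampus. Its fold change was 0.89 in the main fit, where only control striatum array 2 was left in that group. With spots of uneven background kept it was 0.60 (adjusted p = 0.00229). Its other probe gave 0.50 and did not pass (adjusted p = 0.138).

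Ndufa2 was measured by overlapping probes that gave nearly the same change, 0.57 (adjusted p = 0.0214) and 0.55 (adjusted p = 0.0264). The first had levels of 2.31, 2.64 and 2.31 in control striatum and 1.71, 1.99 and 1.88 in control hippocampus, without overlap. Ndufa8 (0.50, adjusted p = 0.0338) and Ndufb7 (0.52, adjusted p = 0.0254), which face the intermembrane space, were also higher, as was Ndufa9 by its brighter probe (0.55, adjusted p = 0.0347). Ndufb2 (0.86) and Ndufb9 (0.78) were called only with spots of uneven background left out, which left only control striatum array 2 in that group. Their changes were 0.43 and 0.38 with these spots kept. Array 2 was the highest of the control striatum arrays for 16 of the 16 probes called.

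In complex II, Sdhd, a membrane anchor of succinate dehydrogenase, had levels of 5.18, 5.55 and 5.00 in control striatum, against 4.76, 4.85 and 4.93 in control hippocampus, and was higher by 0.40 (SE 0.12, adjusted p = 0.0166). Sdhb, the iron-sulfur subunit, showed a larger difference of 0.77 that did not pass, with a single control striatum array left in the fit. In complex III, Uqcrb and Uqcrh, the hinge protein near cytochrome c1, were higher. Uqcrh had 6.28, 6.72 and 6.14 in striatum, against 5.98, 5.98 and 6.04 in hippocampus (0.38, adjusted p = 0.0449). In complex IV, Cox7b had 4.91, 5.51 and 4.91 in striatum, against 4.56, 4.69 and 4.64 in hippocampus (0.54, adjusted p = 0.0497). Of the tissue isoforms of complex IV, 0 of 6 probes were called, with a median change of 0.02. Atp5g2, 1 of the genes for the ring subunit c of complex V, was higher by 0.66 by 1 probe, with only control striatum array 2 left in that group. The change was 0.23 with spots of uneven background kept and -0.01 by the other probe (adjusted p = 0.975).

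Uqcrb, the subunit of complex III that helps to form its ubiquinone site, had the smallest p of all members. It was measured by 3 probes on chromosome 7 that share no run of 15 bases or more, and the sequences are shown because the probes disagreed. They are as deposited in the scanner files, 5′ to 3′, with no part in capitals since no stretch is shared.
Uqcrb A_44_P356291: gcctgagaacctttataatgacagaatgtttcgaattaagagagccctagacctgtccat
Uqcrb A_44_P428197: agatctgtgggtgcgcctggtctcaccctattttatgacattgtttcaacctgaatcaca
Uqcrb A_42_P668800: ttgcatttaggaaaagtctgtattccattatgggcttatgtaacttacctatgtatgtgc

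Probe A_44_P356291 had levels of 4.84, 5.17 and 4.74 in control striatum, against 4.42, 4.60 and 4.44 in prefrontal cortex and 4.23, 4.27 and 4.29 in hippocampus. The 3 regions did not overlap, and striatum exceeded hippocampus by 0.65 (SE 0.11, adjusted p = 0.000152) and prefrontal cortex by 0.43 (adjusted p = 0.00684). Probe A_44_P428197 had 6.01, 6.28 and 5.93 in striatum, 5.63, 5.79 and 5.70 in prefrontal cortex and 5.75, 5.63 and 5.72 in hippocampus. It was higher in striatum by 0.38 (adjusted p = 0.0323) with spots of uneven background kept, and by 0.37 against prefrontal cortex (adjusted p = 0.042). Probe A_42_P668800 ran the other way at a difference of -0.13 that did not pass (adjusted p = 0.515), with 1.06, 1.16 and 0.98 in striatum and 1.26, 1.21 and 1.11 in hippocampus. Ndufa9, an accessory subunit beside the quinone site of complex I, split likewise: its brighter probe had 4.03, 4.65 and 4.18 in striatum and 3.77, 3.86 and 3.75 in hippocampus, and the other, with -0.53, -0.28 and -0.63 in striatum and -0.43, -0.33 and -0.46 in hippocampus, changed by -0.07 (adjusted p = 0.678).

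**Figure D2:**
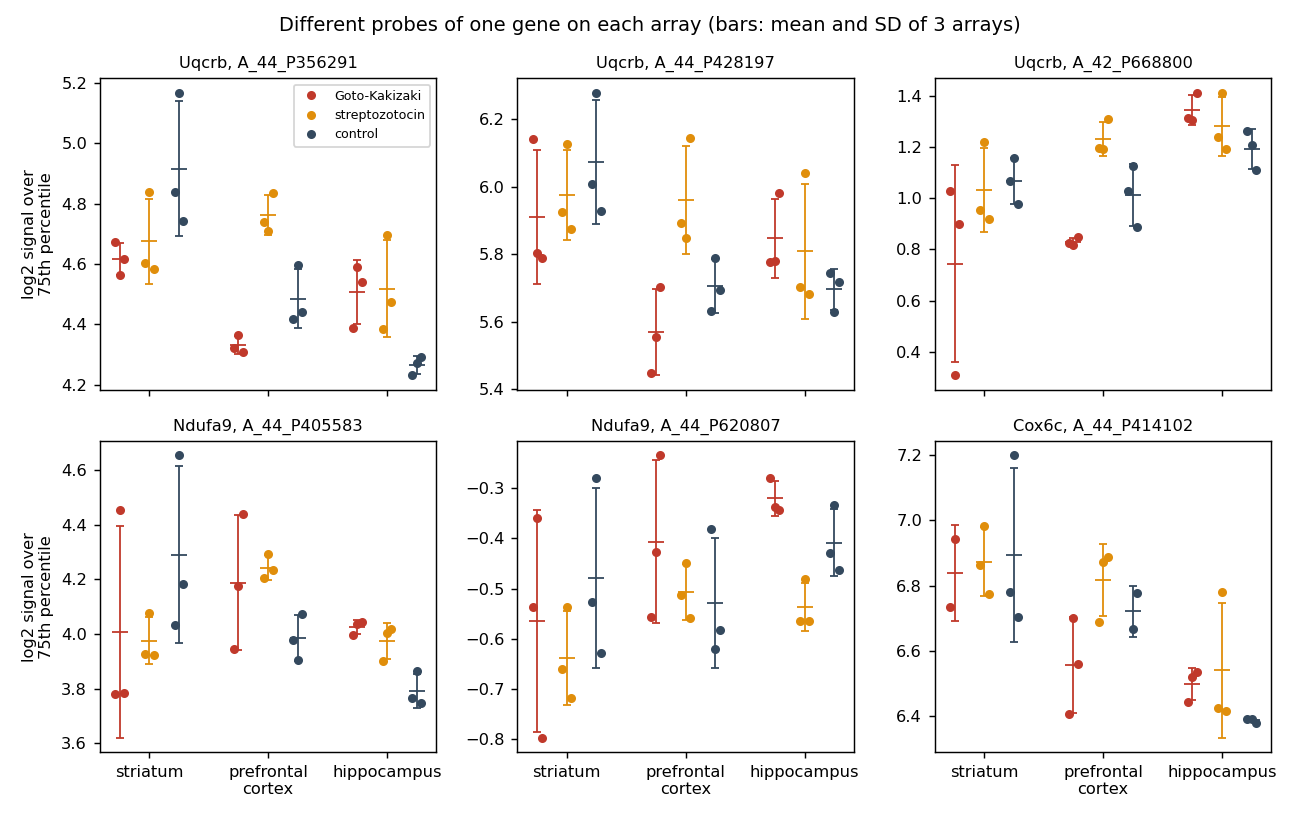
Levels (log2 relative to the 75th percentile, y axis, scaled per panel) of the 3 Uqcrb probes, the 2 Ndufa9 probes and Cox6c on each array by region and kind of rat. Uqcrb A_44_P356291 reached 4.74 to 5.17 in the control striatum and 4.23 to 4.29 in the control hippocampus, while A_42_P668800 lay lower in the control striatum than in the control hippocampus.

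The pair Cox6c and Cox6c1 shows how far a name can mislead. Cox6c encodes a subunit of complex IV, and Cox6c1 is now annotated as its pseudogene Cox6c-ps1. The probes are printed as deposited, with capitals at the 7 bases that differ among 48 aligned (85.4% identical), so that signal of one can come from the other and the values of Cox6c1 are uncertain.
Cox6c: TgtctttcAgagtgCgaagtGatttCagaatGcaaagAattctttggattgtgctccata
Cox6c1: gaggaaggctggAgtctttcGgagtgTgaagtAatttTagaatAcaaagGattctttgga
The bright Cox6c probe had 6.78, 7.20 and 6.70 in control striatum, against 6.39, 6.39 and 6.38 in control hippocampus. Its change of 0.35 did not pass (adjusted p = 0.0648), but that of 0.51 with spots of uneven background kept did (adjusted p = 0.00592). The dim Cox6c1 probe had -2.73, -2.10 and -3.29 in striatum and -3.56, -3.68 and -3.49 in hippocampus, a difference of 0.87 (SE 0.23, adjusted p = 0.00746).

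The calls rested on a small number of arrays. Without control striatum array 2, which stands above its group, 2 of 67 probes were called (Uqcrb, adjusted p = 0.00113, and Ndufa6, adjusted p = 0.0317), and the median change was 0.20 with 53 of 67 above 0. Probes with no other striatal array left in the fit had no value there. With spots of uneven background kept, 23 of 81 were called higher, against 17.3% of all probes, and 13 probes for 12 genes were called in both settings: Ndufa2 by both probes, Ndufa6, Ndufa8, Ndufa9, Ndufb7, Ndufc2, Ndufs6, Sdhd, Uqcrb, Uqcrh, Cox6c1 and Cox7b. With normexp background correction 0 were called.

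**Figure D3:**
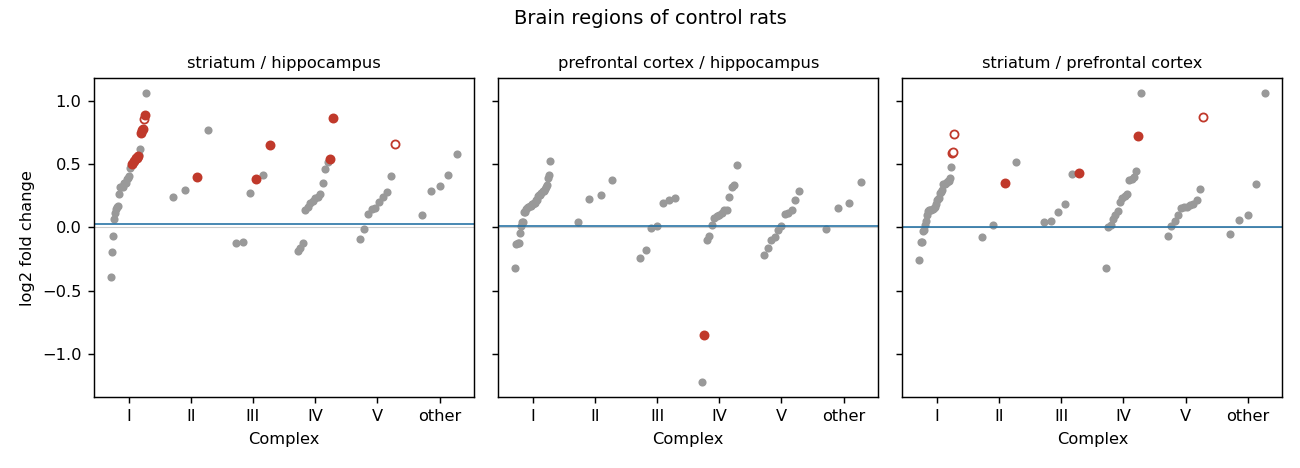
Log2 fold change of each respiratory chain probe (y axis) by complex (x axis) for striatum over hippocampus, prefrontal cortex over hippocampus and striatum over prefrontal cortex in control rats. Grey points did not pass, filled red points passed in both settings for spots of uneven background, open red points passed only with them left out, and the blue line is the median of all probes tested; 16, 1 and 7 probes passed.

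Against the prefrontal cortex, the striatum was higher for 7 of 76 probes and lower for 0, with 12.7% of all probes called higher and 24.8% in either direction. The median change was 0.19, with 67 of 76 above 0, and it turned to -0.05 with normexp, where the median of all probes was 0.38. Called in both settings for spots of uneven background were Sdhd (0.35, adjusted p = 0.0366), with 5.18, 5.55 and 5.00 in striatum and 4.84, 4.92 and 4.91 in prefrontal cortex, Uqcrb, described above, and Cox6b2. Ndufa6 (0.59), Ndufb2 (0.60), Ndufb9 (0.73) and Atp5g2 (0.88) passed only with those spots left out. For Ndufb2, Ndufb9 and Atp5g2 only control striatum array 2 was then left in that group. Without control striatum array 2 the calls were 2, Cox6b2 (adjusted p = 0.0439) and Uqcrb (adjusted p = 0.0478), and the median was 0.05. Slides 5 and 6 each held control arrays of both regions: within slide 5, which held striatum array 2, 5 probes were called with a median of 0.47, and within slide 6 the calls were 0 with a median of -0.02. Each of these sets 1 array against 1 and takes the spread from the other groups, on the assumption that these arrays vary alike. In the striatum, against the prefrontal cortex, striatal markers were higher for 9 of 9 probes and oligodendrocyte markers for 11 of 11 (summed 531 to 559 in striatum, 156 to 195 in prefrontal cortex), while general neuronal markers were lower for 5 of 8. Their part was not tested.

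Prefrontal cortex and hippocampus differed in 1 of 74 probes, Cox6b2, which was lower, with 6.83% of all probes called lower and 15.5% in either direction. The median change was 0.15, with 56 of 74 above 0, and it lay between 0.06 and 0.16 under the other scalings. For 70 of the 74 probes the 95% interval of the change lay within 2-fold either way. Ndufc2 was higher by 0.41 with an adjusted p of 0.0828, or 0.0486 with spots of uneven background kept. In the prefrontal cortex 6 of 9 striatal marker probes were higher than in the hippocampus (summed 6.44 to 21.1 in prefrontal cortex, 3.64 to 3.68 in hippocampus) and 10 of 12 oligodendrocyte probes were lower (156 to 195 in prefrontal cortex, 304 to 336 in hippocampus), and their part was not tested.

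Cox6b2, the testis form of a complex IV subunit, was dim but well above background on all 27 arrays. It had levels of -3.12, -2.71 and -3.22 in control striatum, -3.78, -3.91 and -3.53 in prefrontal cortex and -2.75, -3.05 and -2.87 in hippocampus. The prefrontal cortex lay below both other regions without overlap, by -0.85 against hippocampus (SE 0.19, adjusted p = 0.00263), and striatum exceeded it by 0.72 (adjusted p = 0.00617). The difference between striatum and hippocampus was -0.13 (adjusted p = 0.643). With normexp the 2 calls were lost, at differences of -0.58 against hippocampus (adjusted p = 0.731) and 1.06 for striatum over prefrontal cortex (adjusted p = 0.103).

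Promoters were read for 57 of the 66 member genes with a gene ID, as RefSeq gives them for the GRCr8 build, from 250 bases before to 50 bases after the annotated start. Letters known as sites of nuclear regulators of mitochondrial genes were searched on both strands. GCGCANGCG (NRF1) stood in 15 of the 57 (26.3%), against 5.8% of all 33469 promoters of that length, and AAGATGGCG (YY1) in 9 (15.8%), against 1.73%. CCGGAAGT, bound by ETS factors such as GABPA, stood in 6 (10.5% against 3.81%) and TCAAGGTCA (ERR alpha) in 2 (3.51% against 0.433%). At least 1 of the first 3 was present in 27 (47.4%, against 10.3%). The general elements CCAAT (35.1% against 37.5%), GGGCGG (42.1% against 33.1%) and TATAAA (7.02% against 14.2%) were searched in the same way. None of these shares was tested. The promoters of Ndufa6, Ndufs6 and Sdhd, which were among the genes called between striatum and hippocampus, are printed in the direction of the gene, with the matches in capitals: the reverse complement of the NRF1 letters and then YY1 letters in Ndufa6 and in Ndufs6, and the reverse complement of the ERR alpha letters in Sdhd. Uqcrb and Ndufc2 had smaller p-values than Ndufs6 and Sdhd, and their promoters are not shown. Matches were not counted among the called genes, so the printed promoters do not describe those genes as a set. A match describes the letters in this window and is not a measured site.
Ndufa6, chr7:115750268-115750567, minus strand: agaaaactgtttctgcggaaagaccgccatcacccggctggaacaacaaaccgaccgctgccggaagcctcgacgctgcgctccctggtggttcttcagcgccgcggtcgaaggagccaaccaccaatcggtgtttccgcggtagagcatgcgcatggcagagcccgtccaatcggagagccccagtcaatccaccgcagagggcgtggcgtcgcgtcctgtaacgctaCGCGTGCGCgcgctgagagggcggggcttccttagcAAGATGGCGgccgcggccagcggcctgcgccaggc
Ndufs6, chr1:31797150-31797449, plus strand: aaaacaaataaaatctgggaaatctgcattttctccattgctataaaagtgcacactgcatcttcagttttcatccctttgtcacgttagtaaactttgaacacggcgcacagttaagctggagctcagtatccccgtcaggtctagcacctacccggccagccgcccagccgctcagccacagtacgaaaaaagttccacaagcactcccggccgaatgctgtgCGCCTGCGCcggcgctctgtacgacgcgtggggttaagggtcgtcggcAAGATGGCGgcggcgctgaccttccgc
Sdhd, chr8:59850592-59850891, minus strand: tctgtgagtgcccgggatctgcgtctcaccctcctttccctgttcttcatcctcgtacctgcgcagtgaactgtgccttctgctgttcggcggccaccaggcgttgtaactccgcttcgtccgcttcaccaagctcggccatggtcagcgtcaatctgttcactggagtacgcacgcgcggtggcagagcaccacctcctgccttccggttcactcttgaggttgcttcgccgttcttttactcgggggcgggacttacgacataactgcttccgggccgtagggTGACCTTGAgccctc

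The second question was what differs in spontaneous diabetes. In the hippocampus of Goto-Kakizaki rats 0 of 72 probes were called by limma in either direction, with 3 at an unadjusted p under 0.05, while 5% of all probes tested were called. Most subunits nevertheless lay slightly above control: 61 of 72 changes were above 0, against 43.3% of all probes, and the median was 0.11, against -0.05. This small shift kept its sign in every setting for scaling and background tried (0.06 to 0.21) and without any single array (0.09 to 0.12). Whether other probes of like brightness shifted alike was not tested. By complex the medians were 0.11, 0.24, 0.16, 0.05 and 0.09 for complexes I to V, and 4 of 4 probes of complex II and 6 of 6 of complex III lay above 0. Changes of 2-fold were outside the 95% interval for 71 of 72 probes. Markers of oligodendrocytes were lower in these samples for 3 of 12 probes (summed 245 to 271 in Goto-Kakizaki, 304 to 336 in control hippocampus). The largest falls were those of Mobp probes A_44_P353699 (mean 2.66 in Goto-Kakizaki, 4.22 in control hippocampus) and A_44_P167930 (0.84 and 2.80). Of 8 microglial probes 1 was lower, with summed levels of 38.6 to 40.4 in Goto-Kakizaki and 27.6 to 36.2 in control hippocampus. C1qa and C1qb had higher means in Goto-Kakizaki hippocampus, and the other genes of that list had lower ones. The part of these markers in the shift was not tested. Ndufa12, an accessory subunit of complex I, had the smallest p of its complex, with levels of 5.78, 5.77 and 5.80 in Goto-Kakizaki and 5.31, 5.36 and 5.37 in control hippocampus. The groups did not overlap, but the difference of 0.44 did not pass (adjusted p = 0.132).

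In the Goto-Kakizaki prefrontal cortex 1 of 72 probes passed, Atp5s, which was lower, with 8.62% of all probes called and 4.43% called lower. The median was 0.08, with 48 of 72 above 0 against 51.1% of all probes, and with quantile normalization, where 36 of its probes lay above 0, it turned slightly negative. It also depended on single arrays of the Goto-Kakizaki rats. Without array 1 the median was 0.18, with 58 of 72 above 0, 2 probes called higher and 0 lower. The median fell to 0.04 without array 2 (39 of 66 above 0) and to 0.01 without array 3 (36 of 69 above 0). Complex V had the highest median of the complexes (0.21, 9 of 10 above 0). Its subunit Atp5d, in the stalk that rotates, had 4.60, 4.94 and 5.08 in Goto-Kakizaki and 4.43, 4.37 and 4.34 in control prefrontal cortex, and its difference of 0.49 did not pass (adjusted p = 0.0717). Ndufs7, a core iron-sulfur subunit of complex I, came as close with 5.51, 5.99 and 6.01 in Goto-Kakizaki and 5.37, 5.47 and 5.53 in control rats (0.54, adjusted p = 0.0693, or 0.38 and 0.165 with spots of uneven background kept). The groups did not overlap for Atp5d and overlapped for Ndufs7. In this region 4 of 9 striatal marker probes were lower in Goto-Kakizaki than in control rats (summed 9.95 to 11.7 in Goto-Kakizaki, 6.44 to 21.1 in control rats) and 3 of 8 microglial probes were higher (51.3 to 64.6 in Goto-Kakizaki, 35.6 to 41.8 in control rats). The largest rises on the microglial list were those of C1qb (mean 4.89 in Goto-Kakizaki, 4.07 in control rats) and of both C1qa probes. Aif1 had 3.00 in Goto-Kakizaki and 2.99 in control rats, and Cx3cr1 had -1.63 and -1.44. Itgam, on the same list, had a mean of -2.10 in Goto-Kakizaki and -1.11 in control prefrontal cortex. Oligodendrocyte markers were lower for 2 of 12 probes (111 to 141 in Goto-Kakizaki, 156 to 195 in control rats) and blood markers higher for 1 of 2 (2.51 to 4.65 in Goto-Kakizaki, 1.74 to 2.50 in control rats). The largest oligodendrocyte falls were those of Mobp probes A_44_P353699 (mean 1.42 in Goto-Kakizaki, 2.68 in control rats) and A_44_P167930 (-0.03 and 1.60). The part of all these markers in these values was not tested.

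In the striatum of Goto-Kakizaki rats 1 probe was higher and 3 were lower among 74 tested (5.41%), with 13.9% of all probes called, 6.57% higher and 7.34% lower. The median change was -0.09, with 26 of 74 above 0 against 52.1% of all probes. This direction was not stable: the median was 0.11 with normexp (all probes -0.25), 0.06 without control striatum array 2 and 0.01 without Goto-Kakizaki striatum array 3, and -0.21 without Goto-Kakizaki striatum array 2. Within slide 4, which held all 3 Goto-Kakizaki arrays and 1 control array, it was 0.02 and 0 probes were called, with the lone control array assumed to vary like the other groups, here and in the values within slide 4 below. Complex IV (0.10, 10 of 15 above 0) and complex III (-0.19, 0 of 6 above 0) lay on opposite sides of 0. Microglial markers were higher for 3 of 7 probes in these samples (summed 56.1 to 94.9 in Goto-Kakizaki, 39.3 to 43.2 in control rats) and haemoglobin and other blood markers for 2 of 2 (3.21 to 6.33 in Goto-Kakizaki, 1.56 to 1.98 in control rats), while oligodendrocyte markers were lower for 2 of 11 (426 to 531 in Goto-Kakizaki, 531 to 559 in control rats). Itgam, on the microglial list, had a mean of -1.89 in Goto-Kakizaki and -1.09 in control striatum. Cortical projection neuron markers were lower for 3 of 3 probes (summed 4.9 to 6.5 in Goto-Kakizaki, 7.2 to 7.8 in control rats). Of 8 general neuronal probes 2 were higher and 2 were lower. Their part was not tested.

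**Figure D4:**
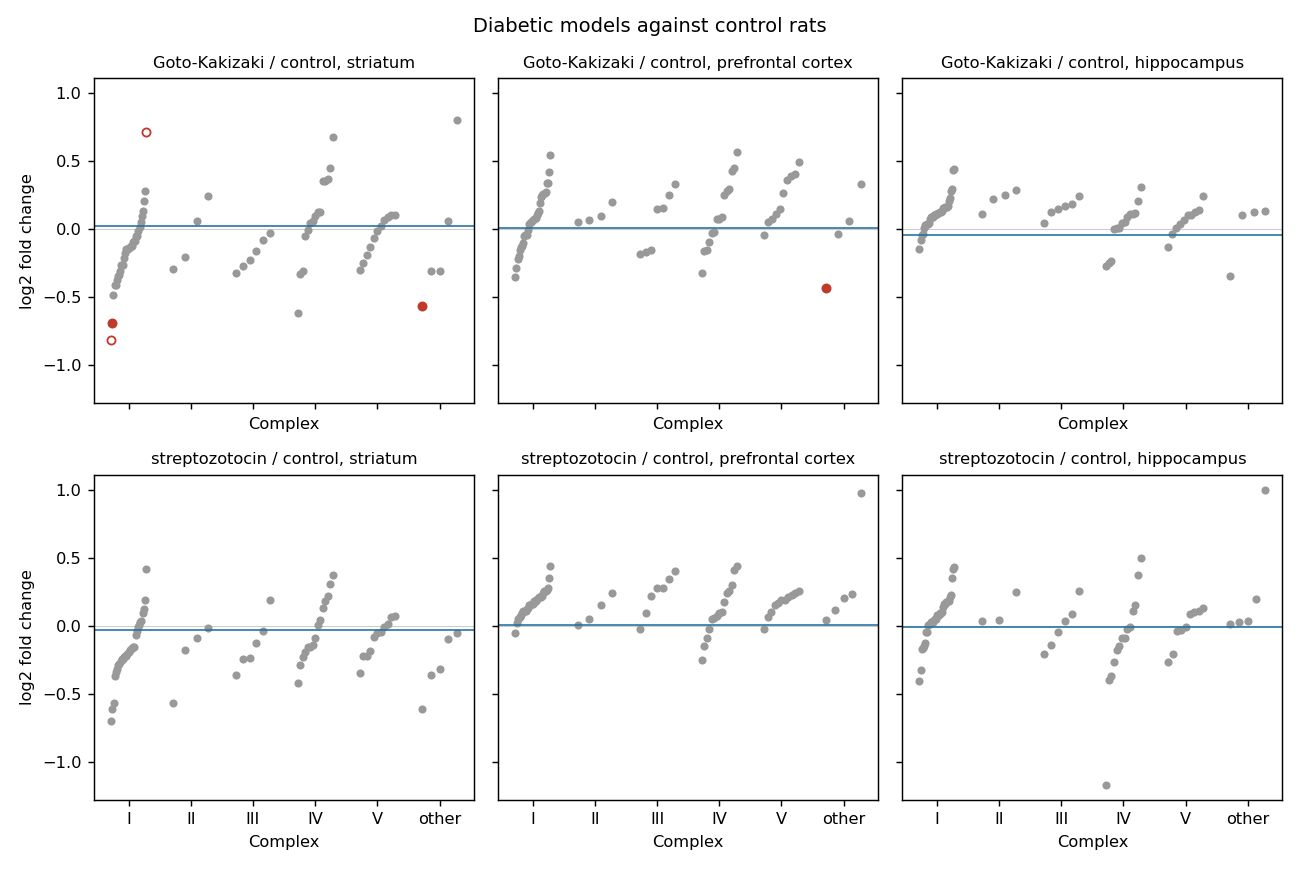
Log2 fold change of each respiratory chain probe (y axis) by complex (x axis) in Goto-Kakizaki rats (top) and streptozotocin-treated rats (bottom) over control rats, in striatum, prefrontal cortex and hippocampus. Grey points did not pass, filled red points passed in both settings for spots of uneven background, open red points passed only with them left out, and the blue line is the median of all probes tested; 4 probes passed in the Goto-Kakizaki striatum, 1 in the Goto-Kakizaki prefrontal cortex and 0 elsewhere.

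Atp5s was the single name that passed in more than 1 region. It had levels of -0.63, -0.60 and -0.80 in Goto-Kakizaki striatum, against -0.22, 0.12 and -0.21 in control striatum, a difference of -0.57 (SE 0.12, adjusted p = 0.0042). In the prefrontal cortex it had -0.62, -0.40 and -0.45 in Goto-Kakizaki and -0.08, 0.06 and -0.13 in control rats (-0.44, SE 0.12, adjusted p = 0.032). In the hippocampus, with -0.56, -0.56 and -0.53 in Goto-Kakizaki and -0.09, -0.34 and -0.19 in control rats, the difference of -0.34 did not pass (adjusted p = 0.14). Every Goto-Kakizaki array lay below every control array of its region. The striatal call held without any single array (-0.62 to -0.46), while the call in the prefrontal cortex held in 1 of 6 such fits (-0.48 to -0.37). The call in the prefrontal cortex was also lost with scaling to the 50th percentile (-0.35, adjusted p = 0.138), with normexp (adjusted p = 0.148), with the region fitted alone (adjusted p = 0.0705) and with the 2 groups alone (adjusted p = 0.143). Within slide 4 (3 arrays against 1) the striatal difference was -0.46 and did not pass (adjusted p = 0.213), nor did it with normexp (adjusted p = 0.158), with slide as a term (adjusted p = 0.256) or with the region fitted alone (adjusted p = 0.149). Streptozotocin-treated rats had -0.57, -0.28 and -0.56 in the striatum, a difference of -0.36 that did not pass (adjusted p = 0.118), and differences of 0.05 in the prefrontal cortex (adjusted p = 0.939) and 0.02 in the hippocampus (adjusted p = 0.964).

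Ndufa7, an accessory subunit of complex I, was lower in the Goto-Kakizaki striatum by 0.69 on the log2 scale (SE 0.19, adjusted p = 0.0184), with levels of 1.12, 1.71 and 1.13 in Goto-Kakizaki and 1.55, 2.52 and 1.98 in control rats. The groups overlapped, and without control striatum array 2 the difference was -0.44 and did not pass (adjusted p = 0.127). Within slide 4 it was -0.22 (adjusted p = 0.778). Ndufa12 (0.71) and Ndufb2 (-0.81) were called only with spots of uneven background left out. Ndufa12 then kept only array 2 of the Goto-Kakizaki striatum, and Ndufb2 only array 2 of the control striatum. With these spots kept the changes came to 0.25 (adjusted p = 0.39) for Ndufa12 and -0.14 (adjusted p = 0.662) for Ndufb2. Ndufa12 had 5.84, 6.46 and 5.69 in Goto-Kakizaki and 5.65, 6.07 and 5.53 in control striatum, and Ndufb2 had 5.28, 6.01 and 5.26 in Goto-Kakizaki and 5.46, 6.09 and 5.42 in control striatum. Both pairs of groups overlapped.

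The same questions were asked of streptozotocin diabetes. In the hippocampus 0 of 69 probes were called by limma (6 at an unadjusted p under 0.05), in the prefrontal cortex 0 of 73 (4) and in the striatum 0 of 72 (5), with 2.15%, 2.6% and 3.22% of all probes called in the same regions. The 95% interval lay within 2-fold either way for 67, 71 and 65 of these probes. The median change was 0.04 in the hippocampus, with 43 of 69 above 0, and turned to -0.05 without streptozotocin hippocampus array 2. In the striatum it was -0.16, with 18 of 72 above 0 against 46.2% of all probes, but 0.11 with normexp (all probes -0.27) and 0.04 without control striatum array 2. In this region the summed levels of astrocyte markers were 131 to 135 in streptozotocin and 99.6 to 115 in control rats. Those of microglial markers were 51.1 to 59.8 in streptozotocin and 39.3 to 43.2 in control rats. Those of oligodendrocyte markers were 423 to 480 in streptozotocin and 531 to 559 in control rats. In these lists 0 probes were called by limma. Of 8 general neuronal probes 2 were higher and 0 were lower, with a median change of -0.004 over the list. The summed levels of the neuronal markers overlapped, at 91.04 to 105.5 in streptozotocin and 92.6 to 100.5 in control rats. The part of all these markers was not tested. The prefrontal cortex had the clearest shift, with a median of 0.17, 66 of 73 above 0 against 50.7% of all probes, and 30 of 31 in complex I. The subunits are brighter than most probes, and whether other probes of like brightness shifted alike was not tested. The median there stayed between 0.10 and 0.21 without any single array and was 0.08, 0.16 and 0.23 within slides 5, 7 and 6, each with 1 array against 1, but with normexp it was 0.05 while that of all probes was 0.21, so that the subunits then lay below the array. General neuronal markers had summed levels of 159.9 to 187 in streptozotocin and 132 to 154 in control prefrontal cortex, 0 of 8 of them called, and 3 of 9 striatal marker probes were lower (8.04 to 9.24 in streptozotocin, 6.44 to 21.1 in control rats). Oligodendrocyte markers were lower for 1 of 12 probes (124 to 131 in streptozotocin, 156 to 195 in control rats) and blood markers for 1 of 2 (1.15 to 1.28 in streptozotocin, 1.74 to 2.50 in control rats). Their part in the shift was not tested.

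Single subunits in streptozotocin-treated rats came near the threshold in the hippocampus. Ndufs4, an accessory subunit of complex I whose loss causes an encephalopathy in mice, had 0.41, 0.63 and 0.49 in streptozotocin and 0.87, 1.10 and 0.77 in control hippocampus. The groups did not overlap, and the difference of -0.40 did not pass (SE 0.12, adjusted p = 0.0876). In the striatum the same probe stood higher, with 0.81, 0.92 and 0.99 in streptozotocin and 0.77, 0.74 and 0.66 in control rats. Cox5a, a complex IV subunit, had 5.55, 5.76 and 5.49 in streptozotocin and 5.16, 5.06 and 5.09 in control hippocampus (0.50, SE 0.15, adjusted p = 0.107). In the prefrontal cortex it had 5.77, 5.74 and 5.81 in streptozotocin and 5.18, 5.43 and 5.41 in control rats (0.44, adjusted p = 0.207), again without overlap and without passing. Ndufa7 had 2.37, 2.29 and 2.21 in streptozotocin and 1.78, 1.97 and 1.82 in control hippocampus (0.43, adjusted p = 0.296). In the prefrontal cortex Ndufb11 (0.44, adjusted p = 0.306), Ndufb3 (0.35) and Uqcrc2, a core protein of complex III (0.34, adjusted p = 0.337), had positive differences. For Ndufb3 a single array was left in a group. In the striatum Ndufc2 (-0.57), Ndufb2 (-0.61) and Uqcrfs1, the Rieske iron-sulfur protein (-0.36, adjusted p = 0.273), had negative differences. For Ndufc2 and Ndufb2 only array 2 was left in the control striatum.

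Whether a model acted differently in 2 regions was tested directly. For the Goto-Kakizaki rats, 0 of 71 probes passed for striatum against hippocampus (limma, 9 at an unadjusted p under 0.05), 0 of 70 for prefrontal cortex against hippocampus (2) and 0 of 68 for striatum against prefrontal cortex (5), with 0.728%, 0.27% and 0.171% of all probes called. For the streptozotocin-treated rats the counts were 0 of 65 (9), 0 of 67 (3) and 0 of 67 (9), with 1.5%, 0% and 0.00324% of all probes called. The median difference of the effects was -0.20, -0.02 and -0.21 for Goto-Kakizaki and -0.19, 0.11 and -0.27 for streptozotocin. The 95% interval lay within 2-fold for 50, 58 and 50 of the Goto-Kakizaki values and for 45, 58 and 46 of the streptozotocin values, and the rest are not bounded that closely by these data.

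The tissue isoforms were among the most variable members. The 3 Cox8h probes, named for the muscle and heart form of a small complex IV subunit, overlap on chromosome 1, and the sequences show how. In A_44_P414273 the capitals mark 21 bases that are the reverse complement of the start of A_44_P689394, so that the probes read opposite strands. In A_44_P689395 they mark the 40 bases shared with A_44_P689394 on the same strand. A_44_P414273 matched the gene by its reference transcript and the others only by a synonym, so the others may not measure its mRNA.
Cox8h A_44_P414273: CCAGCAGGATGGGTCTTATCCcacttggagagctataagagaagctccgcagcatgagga
Cox8h A_44_P689394: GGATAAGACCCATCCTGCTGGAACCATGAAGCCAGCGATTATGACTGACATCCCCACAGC
Cox8h A_44_P689395: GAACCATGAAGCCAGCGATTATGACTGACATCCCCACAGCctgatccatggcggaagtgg
Probe A_44_P414273 had -2.52, -1.79 and -2.27 in streptozotocin hippocampus and -1.77, -1.85 and 0.56 in control hippocampus, where a single array stood out. Its difference of -1.17 (SE 0.48) did not pass (adjusted p = 0.253) and lay between -1.59 and -0.38 without single arrays. In Goto-Kakizaki hippocampus it had 0.11, -1.46 and -0.78. Choroid plexus markers were as uneven in the hippocampus, with summed levels of 20.8 to 155 in Goto-Kakizaki, 3.17 to 3.51 in streptozotocin and 2.56 to 125 in control rats, and their part was not tested. Cox6a2 had 0.12, 0.41 and 0.61 in Goto-Kakizaki and 0.10, 0.08 and -0.76 in control prefrontal cortex (0.57, adjusted p = 0.215).

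Other genes of the pathway were taken from fixed lists. Their counts stand beside the same shares of all probes as those of the subunits, with 16.5% called higher and 28.9% in either direction between striatum and hippocampus, and 5%, 8.62% and 13.9% in the Goto-Kakizaki hippocampus, prefrontal cortex and striatum, and nothing particular to a list is read from them. Of the electron carriers, 1 of 6 probes was higher in the Goto-Kakizaki hippocampus, Etfdh, which passes electrons from fatty acid oxidation to ubiquinone (0.41, adjusted p = 0.0375), and Cycs, which encodes cytochrome c, came next (0.34, adjusted p = 0.0636). In the striatum 2 of 7 were higher than in the hippocampus, Etfa (0.40, adjusted p = 0.0159) and Cyct, the testis form of cytochrome c, which was not well above background on any control hippocampus array. Of the citric acid cycle and pyruvate dehydrogenase probes, 2 of 21 were higher in the Goto-Kakizaki prefrontal cortex, both for Dlat, a subunit of pyruvate dehydrogenase (0.41, adjusted p = 0.0186, and 0.46, adjusted p = 0.000477), and 1 of 21, Fh1 or fumarase, was lower in the Goto-Kakizaki striatum (-0.34, adjusted p = 0.0477). Of the assembly factors, 1 of 16 was lower in the Goto-Kakizaki striatum, Atpaf1, which helps to build the catalytic part of complex V (-0.48, adjusted p = 0.00645). Between striatum and hippocampus 4 of 16 were higher, among them the copper chaperone Cox17 (0.59), and 2 were lower, Cox18 (-0.61) and Foxred1 (-0.64).

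Of the carriers and channels, 3 of 15 probes were higher in striatum than in hippocampus, 2 of them for the adenine nucleotide carrier Slc25a5 (0.61, adjusted p = 0.00135, and 0.48), and Slc25a4, the other main carrier of its kind, was lower in the Goto-Kakizaki striatum (-0.39, adjusted p = 0.031). Of the genes of mitochondrial transcription and biogenesis, 4 of 20 probes were higher and 1 was lower in striatum than in hippocampus. The higher ones were Gabpa (0.40), Tfam (0.29) and Peo1, the mitochondrial DNA helicase, by 2 probes (0.37, and 1.07 with an adjusted p of 9.49e-05), and the lower one was Gabpb1 (-0.48). Gabpa, which encodes the ETS factor whose letters were searched in the promoters, was also higher in striatum than in prefrontal cortex (0.82, adjusted p = 0.000115), as was Yy1 (0.51, adjusted p = 0.0022). Polrmt, the mitochondrial RNA polymerase, was higher in the Goto-Kakizaki striatum (0.50, adjusted p = 0.0325). In streptozotocin-treated rats 0 probes of these lists were called by limma in any region, with 15, 5 and 8 at an unadjusted p under 0.05 in striatum, prefrontal cortex and hippocampus.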

How the data were processed

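RNA of 27 pools was labelled with a single dye and hybridised to 27 arrays. The authors scanned them and deposited, per the file headers, the background-subtracted and detrended signal intensity of each spot from Agilent Feature Extraction 9.1, not scaled between arrays, with flags for spots well above background and for uneven spots. The deposited value table held the same intensity (largest relative difference 0 over 42429 features, column medians 85.7 to 187, linear scale), so that scale and centring are known. Levels are log2 of the deposited processed signal minus log2 of the 75th percentile of the array's 41012 probes.

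Spots flagged for a signal or background that was uneven or a population outlier, called uneven throughout, were left out of the fits. A probe was tested where 2 or more of the 3 arrays in a compared group showed it well above background. A model of 9 group means was fitted to all probes with limma 3.58.1 in R 4.3.3 (data.table version 1.17.8; 18 residual and 2.53 prior degrees of freedom), p-values were adjusted by Benjamini-Hochberg within a comparison, and an adjusted p under 0.05 is a call. Python 3.11.15, pandas 2.3.3 and matplotlib 3.10.9 read files and drew figures. The number of arrays limits the precision.

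Members and lists were chosen with earlier results of these data known. Named are, per comparison, the called probes without overlap (up to 10 a direction), the 2 smallest p per complex, and among other pathway genes those called with 2-fold change and the 2 smallest p. For several probes of a gene the brightest stands for it. Names were updated through the RefSeq table of GRCr8 (48 members matched by accession, 28 by symbol, 5 by synonym). No source says that equal replicate numbers mark the same rats. Deviations of equal numbers correlated above 0.1 in every pair only between streptozotocin and control prefrontal cortex (0.494, 0.474 and 0.716), where they share a slide.

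Alternatives were the 50th percentile, quantile normalization, background correction by normexp (offset 50), the deposited value table in place of the scanner files, other filters on dim probes, outlier spots kept, the spread of the region or of the compared groups alone, the methods' t-test, replicate and slide terms, a 2-fold minimum and leaving out each pool. Leaving out only spots with an uneven signal of their own, and values within a slide, were chosen after seeing the data.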

Additional observations from a re-analysis of the deposited data

Results flagged for a closer look

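Some subunits had changes of opposite sign in 2 regions under the same model, with every array of the model above the controls in one region and below them in the other. These probes were picked for this pattern, and none of the single changes passed. The changes and tests below keep spots of uneven background, as the levels do. Uqcrb, probe A_44_P356291, differed between Goto-Kakizaki and control rats by 0.24 in hippocampus, by -0.15 in prefrontal cortex and by -0.30 in striatum. The test of the difference gave -0.54 for striatum against hippocampus (limma, adjusted p = 0.0823) and -0.40 for prefrontal cortex against hippocampus (adjusted p = 0.317). Uqcrb, probe A_42_P668800, differed by 0.15 in hippocampus and by -0.18 in prefrontal cortex between the same rats (difference -0.33, limma adjusted p = 0.544). Cox6b2 differed by -0.27 in the Goto-Kakizaki hippocampus and by 0.45 in the Goto-Kakizaki prefrontal cortex (difference 0.73, limma adjusted p = 0.273).

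In streptozotocin-treated rats over control rats, Ndufs4 changed by -0.40 in the hippocampus and 0.19 in the striatum (difference 0.59, limma adjusted p = 0.0794). Atp5d changed by -0.27 in hippocampus and by 0.19 in prefrontal cortex (difference 0.46, limma adjusted p = 0.761), and Cox4i1, the common form of subunit 4 of complex IV, by -0.18 and 0.19 (difference 0.37, limma adjusted p = 0.829). None of these differences between regions passed.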

How the results depend on the processing

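Only 3 arrays stood behind each group, the spread was widest in the striatum, and bright spots lost many values to background marks, so that calls turned on the treatment of these spots and on single arrays. The value table, the slide as a random block (consensus correlation 0.0106) and the stricter filter moved none of the counts by over 1.5 times. Over the named probes and alternatives, 1695 values kept direction and side of the threshold, 184 lost the call, 25 gained it and 26 turned in sign. Causes were not tested.

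In the Goto-Kakizaki hippocampus (0 calls) quantile normalization and the methods' t-test each gave 1 call and the 2 groups alone 4. In the Goto-Kakizaki prefrontal cortex (1) quantile gave 3, and normexp, the 2 groups alone, the methods' t-test and a 2-fold minimum 0. In the Goto-Kakizaki striatum (4) normexp gave 1, keeping outlier spots or only those of uneven background 2, and the region alone, the 2 groups alone, the methods' t-test, slide as a term, slide 4 and a 2-fold minimum 0. In the streptozotocin hippocampus (0) quantile gave 1 and the region alone 2. For striatum against hippocampus (16) quantile gave 9, outlier spots kept 25, the 2 groups alone 3, and normexp, the methods' t-test and a 2-fold minimum 0. For prefrontal cortex against hippocampus (1) quantile and keeping spots of uneven background gave 2, the 2 groups alone 4, and normexp and a 2-fold minimum 0. For striatum against prefrontal cortex (7) quantile gave 3, no filter, keeping spots of uneven background and slide as a term 4, the region alone 2, the 2 groups alone and the methods' t-test 1, and normexp, slide 6 and a 2-fold minimum 0. The Goto-Kakizaki effect in prefrontal cortex against hippocampus had 1 call with the regions alone.

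With single arrays left out the calls ranged from 0 to 2 in the Goto-Kakizaki prefrontal cortex, 2 to 8 in the Goto-Kakizaki striatum, 2 to 19 for striatum against hippocampus, 1 to 2 for prefrontal cortex against hippocampus, 2 to 9 for striatum against prefrontal cortex, and 0 to 1 for the Goto-Kakizaki and streptozotocin effects in striatum against hippocampus. The other comparisons stayed at 0. The count for striatum against hippocampus was 2 without control striatum 2 and 7 or 9 without control hippocampus 1 or 3, and that for striatum against prefrontal cortex was 2 without control striatum 2 and 3 or 4 without control prefrontal cortex 1 or 3. In the Goto-Kakizaki striatum it was 8 without Goto-Kakizaki array 1 and 2 without Goto-Kakizaki array 3 or control array 2. In the Goto-Kakizaki prefrontal cortex it was 2 without Goto-Kakizaki array 1 and 0 without Goto-Kakizaki array 3 or any 1 of the control arrays.

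With the replicate number as a block the calls were 2 in the Goto-Kakizaki prefrontal cortex, 2 in the Goto-Kakizaki striatum, 1 in the streptozotocin hippocampus and 3 for striatum against prefrontal cortex. They stayed at 0 in the streptozotocin prefrontal cortex, where pools of equal number come from different rats but shared a slide. The block changed no other count by over 1.5 times. The block turned Atp5j in the Goto-Kakizaki hippocampus to -0.067 and Sdhb in the streptozotocin striatum to 0.22.

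The centred level in Goto-Kakizaki hippocampus was 0.027 with the 50th percentile, 0.016 with quantile and -0.022 with normexp, and in control hippocampus -0.19, -0.061, -0.13 and, with spots of uneven background left out, -0.17. Sdha in the Goto-Kakizaki prefrontal cortex turned to -0.091 with quantile and -0.010 with outlier spots or only those of uneven background kept. With normexp, Ndufb2 turned to 0.027, Sdhd to 0.012 and Atp5c1 to 0.16 in the Goto-Kakizaki striatum, Ndufb3 to -0.076 in the streptozotocin prefrontal cortex, and Ndufc2 to 0.24, Ndufb2 to 0.15, Sdhb to 0.18, Uqcrb to 0.042 and Atp5b to 0.019 in the streptozotocin striatum. It also turned Ndufb9 to -0.053, Atp5g2 to -0.14 and Sdhb to -0.030 for striatum against hippocampus, and Ndufb9 to -0.16, Ndufb2 to -0.20 and Sdhb to -0.28 for striatum against prefrontal cortex. Atp5g3 turned to 0.0099 in the Goto-Kakizaki striatum with slide as a term or within slide 4, and to -0.035 for striatum against prefrontal cortex within slide 6. Sdhd in the streptozotocin hippocampus turned to -0.0095 with quantile, -0.0091 without control array 1 and -0.040 without streptozotocin array 2, the lowest of the values without single arrays, which reached 0.084 without streptozotocin array 1.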
